A study of Drosophila melanogaster with 3 samples.

Results

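The Antennapedia complex is the gene cluster on arm 3R of Drosophila that holds 5 Hox genes, in the order labial (lab), proboscipedia (pb), Deformed (Dfd), Sex combs reduced (Scr) and Antennapedia (Antp). Hox genes encode homeodomain transcription factors that give the segments of the body their identity, and those of this complex act in the head and the anterior thorax. Ultrabithorax (Ubx) belongs to the bithorax complex, farther along the same arm, and acts in the posterior thorax and the anterior abdomen. Hox proteins bind short AT-rich DNA motifs, often beside the cofactors Extradenticle and Homothorax. In the fly, posterior Hox proteins repress more anterior Hox genes, and repression of Antp by Ubx is a known case.

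The binding of HA-tagged Ubx was mapped by chromatin immunoprecipitation and sequencing (ChIP-seq) in S2-DRSC, a cell line from late fly embryos, stably transfected with HA::Ubx. The series has 2 replicates immunoprecipitated with anti-HA antibody and 1 input, and all 3 samples come from the HA::Ubx cells, kept for 24 h in 10 micromolar copper sulphate. The labels do not name the promoter that drives HA::Ubx or say whether the line is a single clone, and they list no cells without HA::Ubx. Both immunoprecipitation replicates share 1 deposited list of 10337 peaks, so no value below has a replicate error. No test across samples was possible. The deposited score of a peak is the authors' own value. What it measures is not stated in the labels or the file, so scores are used only to describe and rank peaks of this list.

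The peaks of the complex are those on 3R with a midpoint between 2480000 and 2830000 in the dm3 genome build. They number 26 of the 2318 peaks of 3R, or 1.12% of them, in a window that makes up 1.26% of the span of peaks on that arm. The first inside lay at 2482985 to 2483300 and scored 27.2, and the last at 2826223 to 2827116 and scored 109.6. The nearest peaks outside lay at 2472411 to 2472848, with a score of 71.1, and at 2862725 to 2863517, with a score of 115.7. The outer peaks stood 7152 bp and 32725 bp from the limits of the window, and the first and last inside stood 2985 bp and 2884 bp from them. Genes were placed by the constant shift of 4174278 bp between Release 6 and dm3 on 3R, and their positions are given as distances to peaks.

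HA-Ubx peaks in the complex were near the middle of the arm in number over the whole list, and high in score. The exact Poisson 95% interval of the 26 peaks, 17.0 to 38.1, covers counting error only and treats peaks as independent. The median count was 27.5 in the 78 other windows of 350 kb that tile 3R, and their counts ran from 5 to 68. Fewer peaks lay in 32 of those windows, the same number in 2 and more in 44. The peaks covered 4.27% of the window, against a median of 6.38% in the other windows, and 16 of the 78 were covered less. By contrast, the median score in the complex was 47.4, and each of the 78 other windows had a lower one. Their medians ran from 18.9 to 44.8 around a middle value of 25.1. The nearest was a window of 42 peaks at 17180000 to 17529999 with a median score of 44.8, followed by 1 of 27 peaks at 16480000 to 16829999 with 40.1. The bithorax complex, which these windows divide, had a median score of 40.2 in a window centred on its genes. All of 538 windows placed every 50 kb also had a lower median score, but these overlap one another and cover the same sequence as the 78. The same held for all of 335 windows on the 5 large arms, which include the 78. When only the upper 50% of the list by score was kept, 97.4% of the 78 windows had a lower median score than the complex. In that upper 50% the complex ranked higher in number, with fewer peaks in 80.8% of the windows against 41.0% in the whole list. It also ranked higher in coverage, with less covered in 50% of the windows against 20.5%. The cut uses the score itself, so it is no separate check of the rank in score, and the complex kept 22 of its 26 peaks. The higher ranks in number and coverage thus follow from the high scores of the complex and are not a separate result.

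**Figure D1:**
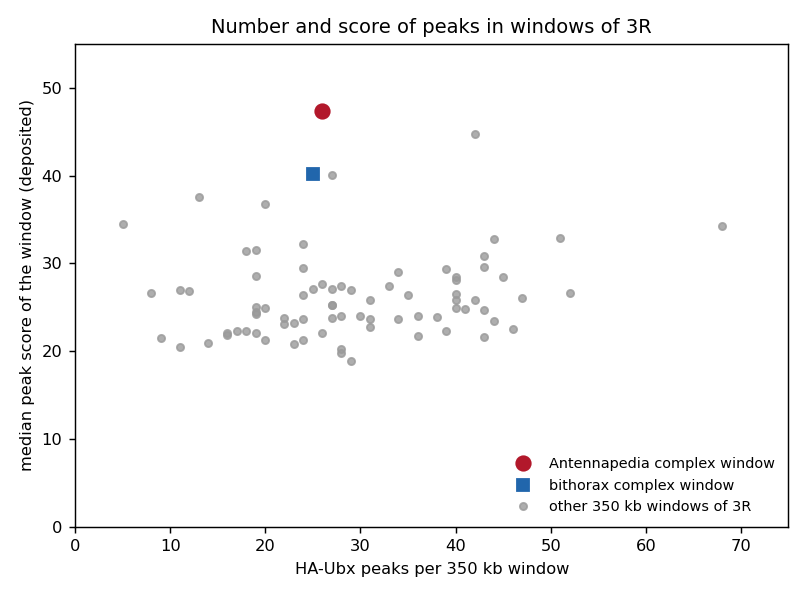
Each point is a 350 kb window of arm 3R, with its number of HA-Ubx peaks on the horizontal axis and the median deposited score of those peaks on the vertical axis. The Antennapedia complex (red, 26 peaks, median score 47.4) lies above the other 78 tiles (grey), and the bithorax complex window (blue square, 25 peaks, median score 40.2), which overlaps some of the tiles, lies below it.

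Among single peaks, the median score was 47.4 in the complex (quartiles 25.4 and 71.6) and 25.8 among the other 2292 peaks of 3R (quartiles 16.8 and 40.3), a difference of 21.6 score units. With so few members the median is loosely fixed. Its 95% interval from order statistics was 26.1 to 65.05 in the complex and 25.0 to 26.6 on the rest of the arm, so the intervals met at their ends. These intervals cover counting error only and treat peaks as independent. A score above the upper quartile of 3R, 40.7, was found for 15 of the 26 members, or 57.7% (Wilson 95% interval 38.9% to 74.5%), against 25.0% of all 3R peaks. Of these, 10 were above the 90th percentile of the arm, 57.7. The members also had a lower median width, 525 bp in the complex and 661.5 bp among the other peaks. The 95% intervals of these medians, 439 to 644 bp and 638 to 687 bp, overlapped at their ends. Of the 78 other windows, 9 had a lower median width. A peak that was both above the upper quartile in score and narrower than the arm's median was found for 11 of the 26 members, or 42.3%, against 9.45% of all 3R peaks. This last pair of limits was chosen after the values were seen. It joins the score and width differences above and is not a separate result.

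**Figure D2:**
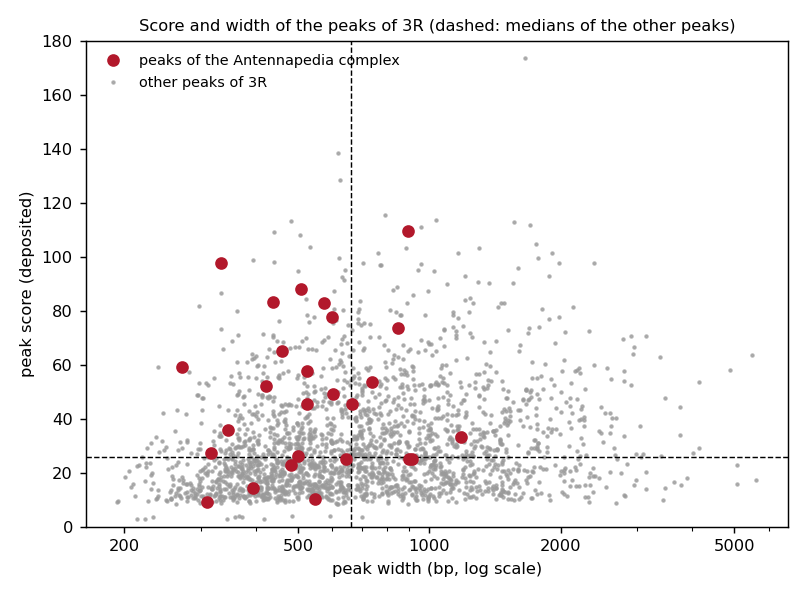
Score against width (log scale) for the peaks of arm 3R, with the 26 peaks of the Antennapedia complex in red and the others in grey. The dashed lines are the medians of the other peaks (661.5 bp and a score of 25.8). In the upper left part, 11 members lie above a score of 40.7 and are narrower than the median of the arm, limits chosen after the values were seen.

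The bithorax complex, the other Hox cluster, was measured in a window of the same length centred on its genes. It held 25 peaks with a median score of 40.2, and 12 of them were above the upper quartile of 3R, against 15 of 26 in the Antennapedia complex. Peaks covered 5.24% of it, and its longest stretch without a peak was 46.1 kb. Its median score was below the highest among the other windows that tile 3R, 44.8, and above the next, 40.1. The tiles at 12280000 to 12629999 and 12630000 to 12979999 divide this cluster, and their medians were 31.5 and 29.5. The 95% interval of the bithorax median, 26.9 to 53.3, lay within that of the Antennapedia complex, 26.1 to 65.05. A high median score was thus not particular to the Antennapedia complex. The difference between the clusters was not tested, since there is 1 list.

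**Figure D3:**
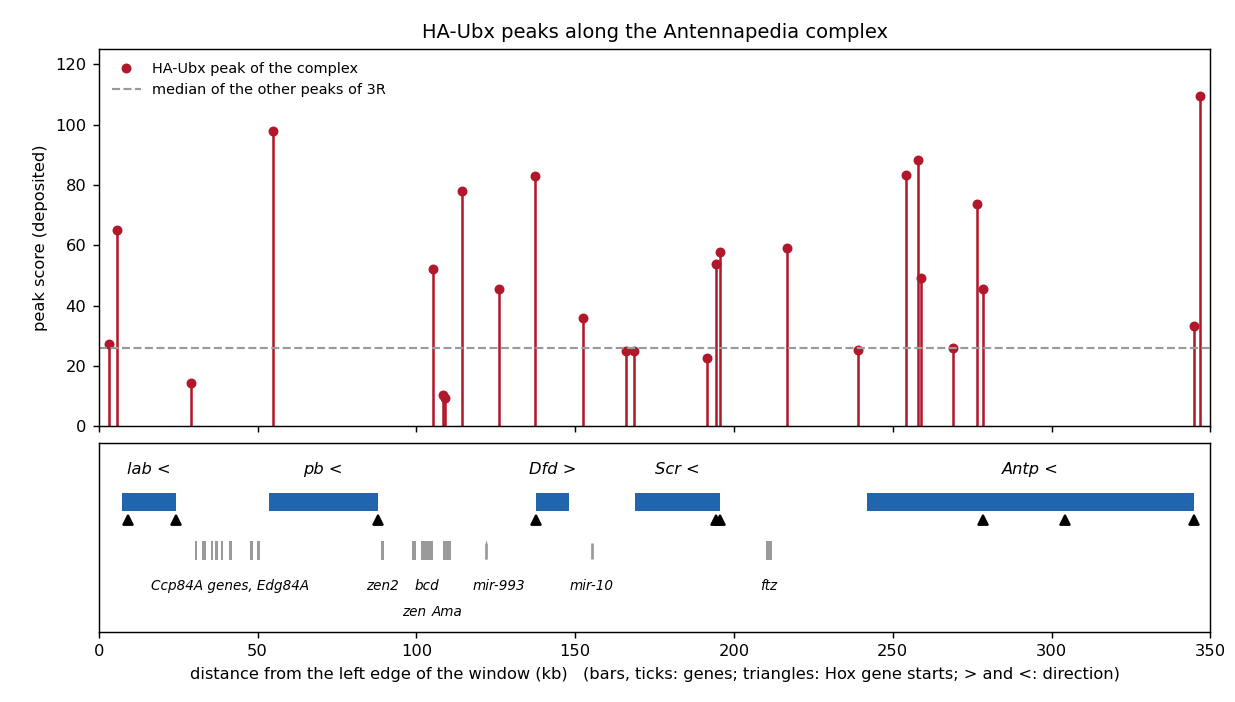
The upper panel gives each HA-Ubx peak of the Antennapedia complex by the distance of its midpoint from the left edge of the window (kb) and by its deposited score, with the median of the other peaks of 3R, 25.8, as a dashed line. The lower panel gives the Hox genes (blue bars, with their direction), the other genes of the complex (grey) and the starts of Hox transcripts (triangles); the starts of Dfd and Scr and both outer starts of Antp lie under peaks, and those of lab and pb do not.

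Antp, which directs the identity of the second thoracic segment, held the most peaks of the complex. Its gene is 102976 bp long, runs leftward and has 3 distinct transcript starts, of which the first and the last stand for its known distal and proximal promoters. The distal start lay under a peak of 1184 bp at 2824224 to 2825407 that scored 33.2. Upstream of it, 1273 bp away, stood the strongest peak of the complex, at 2826223 to 2827116, whose score of 109.6 ranked 10 of the 2318 on 3R and whose midpoint lay in the long non-coding RNA gene CR45899. The proximal start lay under a peak at 2758222 to 2758888 that scored 45.5, with a second peak 1752 bp downstream, at 2755965 to 2756810, that scored 73.8. The remaining start, between them, which is shared with the gene model CG46458, had no peak within 25204 bp.

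Downstream of the proximal start, the Antp gene held 4 more peaks. Those at 2733814 to 2734252 and 2737742 to 2738250 scored 83.3 and 88.3 and ranked 55 and 45 on the arm. The peak at 2738446 to 2739047 scored 49.2, and that at 2748774 to 2749274, scored 26.1, close to the median of the arm. In all, 7 peak midpoints fell in Antp, of which 4 were intronic, 1 lay in an annotated 3′ UTR and 2 lay in a 5′ UTR at the starts. Per length this was 0.68 peaks per 10 kb, against a median of 0.37 over the 454 protein-coding genes of 3R that are at least 10 kb long, and 59.9% of those genes had fewer. Scr had 0.74 peaks per 10 kb, with fewer in 63.4% of those genes, and pb had 0.29, while no midpoint fell in lab or Dfd.

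Scr, which acts in the labial and first thoracic segments and in the salivary gland, had both of its starts under peaks. The outer start lay under a peak at 2675462 to 2675985 that scored 57.9, and the inner start under one at 2674102 to 2674840 that scored 53.7. Another peak, in an intron 2477 bp farther into the gene, at 2671269 to 2671750, scored 22.8 and was below the arm's median. The rest of the 26862 bp gene, towards its 3′ end, lay in a stretch of 22.4 kb without a peak.

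Dfd, which acts in the mandibular and maxillary segments, had its single start under a peak at 2617130 to 2617703. It scored 82.8 and ranked 60 on the arm, and no other midpoint lay within 5000 bp. Beyond that peak the 10593 bp gene had none. The next peaks on the upstream side, at 2605695 to 2606220 and 2593988 to 2594587, scored 45.5 and 77.9 and lay 11338 bp and 22971 bp from the start. The second of these was in an intron of the long non-coding RNA gene CR42721, which also holds mir-993.

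At the other end of the complex, neither lab nor pb had a start under a peak. lab, which acts in the intercalary segment of the head and in the midgut, had no peak over any of its 17164 bp. Its 2 starts were 3152 bp and 4595 bp from the nearest peaks. The first of these peaks, at 2485566 to 2486024, scored 65.0 but lay beyond the 3′ end of lab, over the start of the gene agt. The second, upstream of lab at 2508907 to 2509300, scored 14.4. pb, which acts in the mouthparts, had no peak within 17358 bp of its start. It held 1 peak, in an intron towards the 3′ end of the gene, at 2534601 to 2534934. This peak was 334 bp wide, scored 97.9 and ranked 24 on 3R, and no other midpoint lay within 5000 bp of it.

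Over the 5 Hox genes, 5 of 9 distinct starts lay in a peak, against 38.3% of the 4647 distinct starts of protein-coding transcripts on 3R. Within 1000 bp of a peak the count was also 5 of 9, against 49.4% on the arm, and within 5000 bp it was 7 of 9, against 72.5%. By gene, Dfd, Scr and Antp, or 3 of 5, had a start in a peak, against 51.5% of the 454 protein-coding genes of at least 10 kb. A peak midpoint inside the gene was found for pb, Scr and Antp, again 3 of 5, against 60.1% of those long genes. With 9 starts and 5 genes, these shares lie near those of the arm. The scores of the 5 peaks over Hox starts, from 33.2 to 82.8, were all above the median of 26.1 for the 1173 3R peaks over a protein-coding start. Most of the complex was high as well, with 19 of the 26 members, or 73.1%, above 25.9, the median of all 3R peaks. Of all 26 members, 10 lay over a protein-coding start, against 50.6% of the peaks of 3R. The 10 had a median score of 48.9 and the other 16 a median of 47.4, so high scores were found at starts and away from them.

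Of the other 15 genes listed for the complex, bcd and Ama had a start under a peak, Edg84A had one within 1000 bp, and 7 in all had one within 5000 bp. Counted by distinct starts, 3 of 17 lay in a peak, against 38.3% of the protein-coding starts on the arm. Within 1000 bp of a peak there were 4 of 17, against 49.4%, and within 5000 bp 8 of 17, against 72.5%. The 17 and the 8 include the starts of the microRNA genes mir-10 and mir-993, which the shares of the arm leave out. bcd, which encodes the morphogen of the anterior embryo, had a peak over its start at 2585143 to 2585565 with a score of 52.2. Ama, which encodes the secreted immunoglobulin-type protein Amalgam, had each of its 2 starts under a peak, and these scored 10.5 and 9.21, the lowest in the complex. zen and zen2, homeobox genes of the dorsal embryo that have lost the Hox role, had no peak within 5227 bp and 15285 bp of a start. ftz, a pair-rule gene with a homeobox, lay between peaks, and the nearest, at 2696615 to 2696886, was 6569 bp from its start on the downstream side and scored 59.2. None of the 7 cuticle genes Ccp84Aa to Ccp84Ag, and not their neighbour Edg84A, was overlapped by a peak. The microRNA genes mir-10 and mir-993 lay 2559 bp and 3640 bp from the nearest peaks, which scored 35.9 and 45.5.

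Stretches without a peak took up much of the complex. The longest, 65.3 kb from 2758889 to 2824223, lay inside Antp between its distal and proximal starts. The second, 50.2 kb from 2534935 to 2585142, held zen2 and zen whole, most of pb with its start, and the body of bcd. The third, 25.3 kb from 2509301 to 2534600, held all 7 Ccp84A genes and Edg84A. These 3 stretches made up 40.2% of the window, a share that was not computed for the other windows. lab lay whole in a further stretch of 22.9 kb, from 2486025 to 2508906. Long stretches were common on the arm. The 3 longest ranked 71, 107 and 265 among the 2317 stretches of 3R, whose longest was 258.8 kb, and 39 of the 78 other windows had a longer maximum than the 65.3 kb of the complex. The medians were farther apart, but that of the complex comes from 25 stretches and has no interval here. Their difference was not tested. The median of 3R pools all stretches of the arm, and no median stretch was computed for each of the other windows. The median stretch was 9.73 kb between peaks of the complex and 3.96 kb over 3R, and 12 of the 25 stretches in the complex were at least 10 kb long, against 28.0% of those on the arm.

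**Figure D4:**
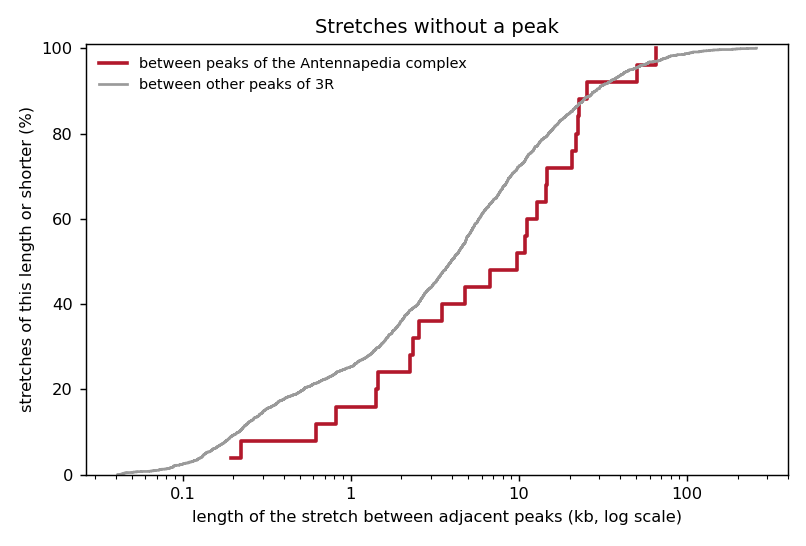
Cumulative share of the stretches between adjacent peaks by their length (kb, log scale), for the 25 stretches inside the Antennapedia complex (red) and for the other stretches of arm 3R (grey). The red curve lies to the right of the grey one up to about 20 kb, with a median of 9.73 kb in the complex and 3.96 kb over all of 3R, and the longest stretch in the complex is 65.3 kb.

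Within the complex the peaks were unevenly spread. Of the 7 bins of 50 kb, the second, which holds all of pb, held 1 peak, and the bins with bcd to Dfd, with Scr and with the proximal part of Antp held 6 each. The median over the 7 bins was 3 peaks, the same as over the 557 bins of the arm. Another midpoint within 5000 bp was found for 17 of the 26 members, or 65.4% (Wilson 95% interval 46.2% to 80.6%), against 73.8% of all 3R peaks. That interval treats peaks as independent, although adjacent members count each other as neighbours. The 9 members without such a neighbour had a median score of 45.5 and ran from 14.4, upstream of lab, to 97.9, in pb. The 17 with one had a median of 49.2 and ran from 9.21, at Ama, to 109.6, upstream of Antp.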

How the data were processed

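The authors' deposited list gives the position and a score of each peak, and it has no header. Per the submitters' processing notes, BWA 0.7.12, MACS2 and build dm3 were used. How replicates and input were combined, the thresholds and the quantity of the score are not given in the sources used. Read depth is unknown. Positions were made 1-based.

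A peak belongs to the complex by its midpoint. Tiles of 350 kb ran from the edges of the window along the span of peaks on 3R. Genes came from the Ensembl release 115 annotation of Release 6, moved by the constant 3R shift. The shift was checked on starts of protein-coding genes: 1243 of 3339 lay in peaks, against 233 to 307 when it was changed by 1 kb or more. Within 1 Mb of the window, with the window left out, 63 of 234 did, against 7 to 16. Exons and UTRs follow the same annotation. No dm3 sequence was used, so the planned search for motif letters in promoters was not made.

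The members, gene lists and comparisons were chosen with earlier results of these data known. The 5 Hox genes were always named, the other genes were a fixed list of 15 plus the bithorax genes, and peaks were named by score, width, place at a start and place at the edges. Lengths, counts, the median score and the shift were tested on simulated data, and ranks were not. Calculations ran in Python 3.11.15 (pandas 2.3.3, scipy 1.17.1, numpy 2.4.6), and plots in matplotlib 3.10.9.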

Additional observations from a re-analysis of the deposited data

How the results depend on the processing

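The count of 26 peaks, the covered share, the median score and width, the longest stretch and the bithorax count stayed within their limits in each setting run. The limits were a factor of 1.5 for counts, covered share and lengths, and the 95% interval for medians and percentages. When only the upper 50% of the list by score was kept, 80.8% of the other windows had fewer peaks than the complex, 50% had less covered and 30.8% had a shorter longest stretch, against 41.0%, 20.5% and 50% in the full list. This cut is made on the score, which was high in the complex. With peaks less than 1000 bp apart joined, 52.6% of the windows had fewer peaks. The share of members with a neighbour was 15.4% within 1000 bp and 88.5% within 20000 bp, by the construction of the limit. With 1 start per gene, 3 Hox starts lay in a peak in place of 5, since fewer starts were counted. Without the 2 peaks over 7SL and tRNA genes the median score was 50.7, and without the strongest member it was 45.5; all 78 other windows still had a lower one. These settings, and the score on all 5 large arms, were chosen after seeing the data. Motif settings were not run. No replicate could be left out, and no paired analysis was possible because both replicates share 1 list. Without read counts, the precision of a score and the binding below the peak caller's limit are unknown.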

Other observations

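Several members of the complex lay at genes that are not Hox genes. At the left edge, beyond the 3′ end of lab, a peak at 2482985 to 2483300 with a score of 27.2 lay over the start of CG1307, and the peak with a score of 65.0 over the start of agt. Between Dfd and Scr, 2 wide peaks stood 1462 bp apart, at 2645552 to 2646464 (913 bp) and 2647927 to 2648823 (897 bp), with nearly equal scores of 25.1 and 25.0. Each overlapped a 7SL RNA gene, the RNA of the signal recognition particle, and a tRNA-Lys gene. Such genes occur in near-identical copies, so the place of reads between these 2 peaks is uncertain. A peak between Scr and Antp, at 2718764 to 2719407, scored 25.1 and lay over the start of the long non-coding RNA gene CR45559.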
